A study of Mus musculus with 24 samples.

Results

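The interleukin-6 family of cytokines and the STAT3 pathway that it drives were followed in the choroid of wild type and Ceacam1-/- mice, with and without laser treatment. The 10 genes were chosen by name from the 56065 genes of the table, with earlier results of these data known. They are the ligand genes Il6, Il11, Lif, Osm, Clcf1 and Cntf, the receptor genes Osmr and Il6st, the transcription factor gene Stat3 and its inhibitor gene Socs3. RNA of 24 choroidal libraries was sequenced, 4 from wild type mice without laser, 9 from wild type mice with laser, 4 from Ceacam1-/- mice without laser and 7 from Ceacam1-/- mice with laser. All mice had the C57BL/6J background, and the Ceacam1-/- mice carried a constitutive deletion of the first exons of Ceacam1, with wild type littermates as controls. Lasered eyes received 6 laser spots each, an injury that opens Bruch's membrane and is used to induce choroidal neovascularization. Mice of both sexes were used, aged 6 to 8 weeks unless stated otherwise in the methods, but the sex behind each library and the time from laser to tissue collection were not given in the sources used here. The libraries without laser are from 4 mice of each genotype. The study removed an outlier sample before its evaluation. The label of that sample was not given in the sources used here. Whether each laser library came from a separate mouse was not given in the sources used here, so a p-value that rests on them measures only the spread between these libraries, which may be technical. Each library held between 23704346 and 35094410 normalized counts in all, which are estimated reads of a gene divided by factors for library size and transcript length.

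The members of this cytokine family share the receptor subunit gp130, which Il6st encodes. Ligands differ in the further receptor chains they need, such as the oncostatin M receptor encoded by Osmr, and the assembled complex with gp130 then activates Janus kinases that phosphorylate STAT3. Phosphorylated STAT3 enters the nucleus and switches on, among other genes, Socs3, whose product blocks the kinases and the receptor. In the injured retina, LIF is known as a product of Müller glia that signals to photoreceptors, while Il6 and Osm are best known as products of activated macrophages and other leukocytes. RNA levels report the transcription of these genes and not the phosphorylation of STAT3.

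The stretches before the RefSeq start sites of Socs3 and Il6 are shown because each holds a motif of a factor known to act on it. Both genes were also called higher with laser in both genotypes in the model of 24 libraries. A model of the Ceacam1-/- libraries alone called neither. Each stretch is the 250 bases before the start site, from RefSeq on the build GRCm38.p6, written 5′ to 3′ on the strand of the gene. Capitals mark TTCNNNGAA, the STAT motif, which is its own reverse complement, in Socs3 (chr11:117969367-117969616, minus strand), and GGGANTTTC, an NF-kappaB motif that was searched together with its reverse complement GAAANTCCC, in Il6 (chr5:30012864-30013113, plus strand).
Socs3: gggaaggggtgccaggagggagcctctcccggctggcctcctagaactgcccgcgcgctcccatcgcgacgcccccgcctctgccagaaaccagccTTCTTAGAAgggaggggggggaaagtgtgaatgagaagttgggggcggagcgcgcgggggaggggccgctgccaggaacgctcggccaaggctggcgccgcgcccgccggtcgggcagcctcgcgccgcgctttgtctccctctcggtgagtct
Il6: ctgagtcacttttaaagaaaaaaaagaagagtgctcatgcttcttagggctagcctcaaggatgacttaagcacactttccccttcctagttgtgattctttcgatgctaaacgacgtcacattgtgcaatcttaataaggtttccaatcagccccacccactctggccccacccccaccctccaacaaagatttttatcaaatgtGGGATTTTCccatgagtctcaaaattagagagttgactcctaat
Windows of 300 bases, from 250 before to 50 after a start site, were found for 8 of the 10 genes, with 9 windows in all. The STAT motif was present in 1 of these 9 windows, at bases 154 to 146 before the RefSeq start site of Socs3, as TTCTTAGAA. The RefSeq start sites on GRCm38.p6 were not compared with the GRCm39 gene positions given below. A stretch may therefore lie within the longer gene of that annotation. It was present in 5 of 61 windows of the other pathway genes (8.2%) and in 2726 of all 32851 windows (8.3%). The NF-kappaB motif was present in 1 of the 9 windows, at bases 44 to 36 before the start of Il6, as GGGATTTTC, in 1 of 61 windows of the other pathway genes (1.64%) and in 365 of all 32851 windows (1.11%). A match is a description of the letters and not a measured binding site. The 2 stretches were picked for their match, and the NF-kappaB motif was shortened after counts with a longer form had been seen. The shares of windows are therefore no test of the 10 genes.

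The tissue and the labels were checked first. Markers of RPE (Ttr the most abundant), melanocytes (Dct) and endothelium (Plvap) were above 0 in every group, with no gene of these lists at 0 throughout a group. Transcripts of neighbouring tissues were present as well. The normalized counts of 10 photoreceptor genes summed to 953315, 542565 and 1021817 in the Ceacam1-/- laser libraries 14, 15 and 18, and to between 7619 and 142830 in the other 4. Wild type library 21 (547705) and Ceacam1-/- library 23 (594340), both without laser, were also rich in them. No wild type laser library exceeded 217640. The same 3 Ceacam1-/- laser libraries had the lowest sums of RPE markers among all libraries, between 30435 and 60699. These 5 libraries are called photoreceptor-rich below, and the comparisons that include them were repeated without them, a choice made after seeing the data. Surface epithelium markers such as Krt15 summed to 76719 or more in libraries 15, 19, 22, 27 and 28. Ceacam1, the deleted gene, had a median of 996 normalized counts (range 774 to 8367) in wild type laser libraries and of 335 (range 67.8 to 905) in Ceacam1-/- laser libraries. Without laser it had 958, 5027, 1242 and 4596 in wild type and 405, 505, 508 and 1171 in Ceacam1-/- libraries, so that libraries 15 and 28 overlapped the wild type range. Counts in Ceacam1-/- libraries can come from exons outside the deletion, so the gene total is a weak check of the labels.

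**Figure D1:**
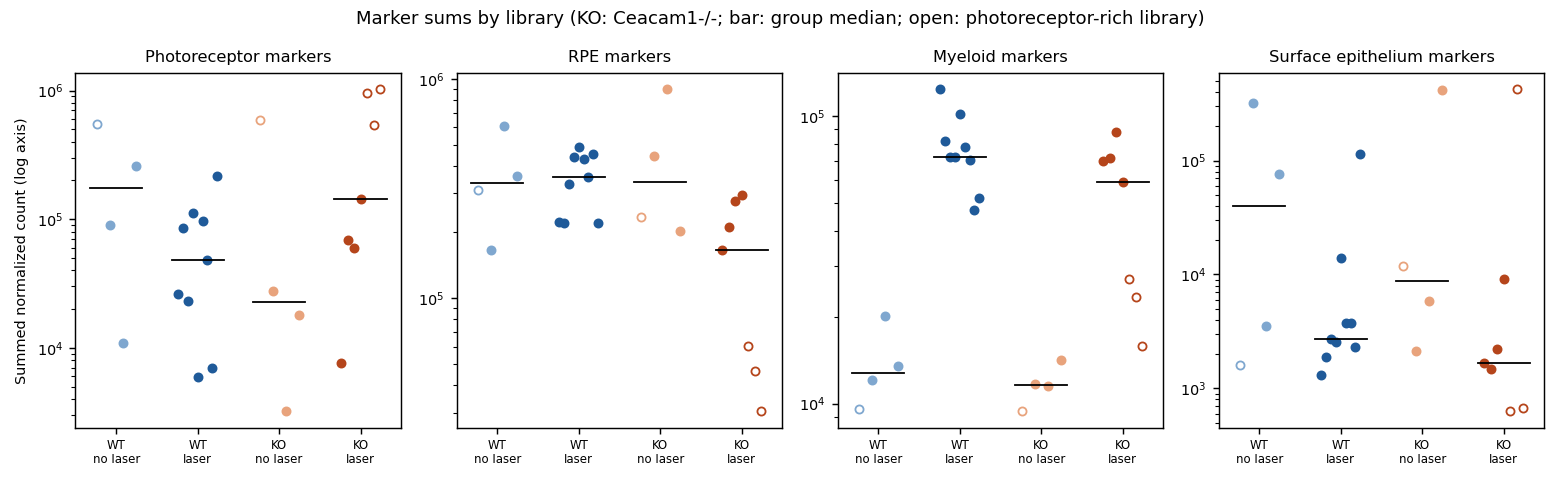
Summed normalized counts (log axis) of photoreceptor, RPE, myeloid and surface epithelium markers in each of the 24 libraries, by group, where KO stands for Ceacam1-/-, a bar for the group median and open points for the 5 photoreceptor-rich libraries. The 3 open points of the Ceacam1-/- laser group lie at 542565 to 1021817 for photoreceptors and at 30435 to 60699 for RPE markers.

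The transcription factor and the receptor subunits were far more abundant than the ligands. Levels were compared between genes as normalized counts per kb of the canonical transcript. In wild type choroids without laser, Stat3 had 595 ± 64.5, Il6st 381 ± 17.7, Osmr 285 ± 69.9, Socs3 161 ± 54.6 and Clcf1 59.4 ± 21.3 per kb (SD, n = 4 each). Ranges of neighbours in this order did not overlap between Stat3 and Il6st, between Osmr and Socs3 and between Socs3 and Clcf1, and overlapped between Il6st and Osmr. Cntf (21.4 ± 22.6), Lif (14.0 ± 5.57), Il11 (8.63 ± 3.29), Il6 (4.17 ± 3.98) and Osm (2.00 ± 2.25) followed, each overlapping the next. Stat3 was also first in the other 3 groups, with 902 ± 140 per kb in wild type laser choroids (n = 9), 627 ± 88.5 in Ceacam1-/- choroids without laser (n = 4) and 825 ± 91.8 in those with laser (n = 7). Its range overlapped that of Osmr, the next in order, in wild type laser choroids. In both Ceacam1-/- groups it did not overlap the next, Il6st. Osm and Il6 were the last in both groups without laser. With laser, Il6, Lif, Osm, Il11 and Cntf each overlapped the next in order in both genotypes, at 18.7 per kb (Il11) to 35.3 per kb (Lif) in wild type and 14.4 (Cntf) to 27.03 (Il6) in Ceacam1-/- choroids.

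The first question was how these genes differed between lasered and untreated wild type choroids. Of the 10 genes, 5 were higher with laser at an adjusted p under 0.05, namely Il6, Osm, Osmr, Stat3 and Socs3, and none was lower, against 4.23% of the 19950 genes tested called higher and 5.28% called in either direction. All 10 fold changes were above 0, with a median log2 fold change of 1.1, where the median over all genes tested was -0.102. Lif, Osm and Socs3 did not overlap between the groups, as did 4.5% of all genes tested. Il6 and Osm passed the filter on low values, a mean of at least 10 normalized counts, only through the laser libraries, so that they could enter the test only by being higher there. In whole tissue, a change in the number of cells and a change in RNA per cell cannot be told apart.

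Il6 (ENSMUSG00000025746, chromosome 5 from 30218112 to 30224979, GRCm39, 5 exons) encodes interleukin-6, the cytokine for which the family is named. It had 2.30, 0, 6.48 and 10.2 normalized counts in the 4 wild type libraries without laser (21, 22, 26 and 27) and a median of 35.6 in the 9 with laser, from 9.96 to 78.5. Only laser library 11, the lowest, fell inside the range without laser. This is a log2 fold change of 3.08 (standard error 0.64, adjusted p = 0.00516). Osm (ENSMUSG00000058755, chromosome 11 from 4186420 to 4191026, 3 exons), which encodes oncostatin M, had 0, 0.999, 11.1 and 6.03 without laser and a median of 65.6 with laser, from 21.9 to 133. Every laser library was above every library without laser, and the log2 fold change of 4.09 (standard error 0.72, adjusted p = 0.00112) was the largest of the 10. Both fold changes depend on the pseudocount of 1 because of the low values without laser. With a pseudocount of 10 they were 1.64 for Il6 and 2.37 for Osm, still past the threshold. With each library left out in turn, Il6 ranged from 2.40 without library 22 to 3.56 without library 27 and Osm from 3.47 without library 21 to 4.67 without library 26, all past the threshold.

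The other ligands did not pass the threshold. Lif (ENSMUSG00000034394, chromosome 11 from 4207557 to 4222514, next to Osm) had 45.9, 44.0, 90.0 and 45.6 without laser and a median of 124 with laser, from 101 to 201. The groups did not overlap, yet the model of all 24 libraries, in which the groups share an estimate of the spread, gave a log2 fold change of 1.34 with a standard error of 0.52 and an adjusted p of 0.140. In a model of the 13 wild type libraries alone the adjusted p was 0.00535. Il11 (ENSMUSG00000004371, chromosome 7), which encodes interleukin-11, had 12.95, 25.2, 18.2 and 10.9 without laser and a median of 32.6 with laser, from 21.2 to 69.0, with a log2 fold change of 1.06 (standard error 0.40, adjusted p = 0.126). Clcf1 (ENSMUSG00000040663, chromosome 19), a ligand that signals through the CNTF receptor, had 79.4, 95.4, 167 and 96.6 without laser and a median of 179 with laser, from 101 to 338 (log2 fold change 0.73, adjusted p = 0.182). Cntf (ENSMUSG00000079415, chromosome 19), which encodes ciliary neurotrophic factor, ranged from 17.3 to 258 without laser and from 17.3 to 199 with laser (log2 fold change 0.62, adjusted p = 0.601). Its values are uncertain, because the protein-coding gene Gm44505 overlaps it on the same strand with a mean of 849 normalized counts against 102 for Cntf.

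Of the receptor subunits, Osmr rose. Osmr (ENSMUSG00000022146, chromosome 15 from 6843053 to 6904450, 18 exons) had 1266, 1367, 2124 and 1512 normalized counts without laser and a median of 3493 with laser, from 1839 to 4936. Laser library 2 lay below library 26, the highest without laser, and the other 8 lay above it. This gave a log2 fold change of 1.14 (standard error 0.28, adjusted p = 0.0175), and the adjusted p rose to 0.0854, 0.0597 and 0.0585 without libraries 21, 22 and 27 in turn. Il6st (ENSMUSG00000021756, chromosome 13 from 112600604 to 112646620), the subunit that all 6 ligands use, had 3119, 3483, 3257 and 3354 without laser. With laser its values ranged from 2958 to 7842 with a median of 5670, and 3 of the 9 libraries, numbers 1, 2 and 17, lay below all of those without laser. It differed by 0.54 on the log2 scale (standard error 0.33, adjusted p = 0.363).

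Stat3 and Socs3 both rose. Stat3 (ENSMUSG00000004040, chromosome 11 from 100775924 to 100830450, 24 exons) had 2405, 3085, 2807 and 2578 normalized counts without laser and a median of 3968 with laser, from 3021 to 4876. Laser library 2 fell inside the range without laser. Laser raised Stat3 by 0.59 on the log2 scale (standard error 0.13, adjusted p = 0.00975), a 1.504-fold difference. Without library 21 the adjusted p was 0.0639. The neighbouring gene Stat5a overlaps Stat3 on the opposite strand with a mean of 383 normalized counts against 3574, and the strand setting of the counting was not given in the sources used here. Socs3 (ENSMUSG00000053113, chromosome 11 from 117856905 to 117860898, 2 exons) had 548, 291, 562 and 317 without laser and a median of 909 with laser, from 767 to 1341. The groups did not overlap. It differed by 1.19 on the log2 scale (standard error 0.25, adjusted p = 0.00459), and it kept an adjusted p of at most 0.0318 with each library left out in turn. Without library 21, 3 of the 10 genes were called higher, beside 411 of all genes higher and 68 lower. Without the photoreceptor-rich libraries 5 of the 10 were, beside 1129 of all genes higher and 516 lower.

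**Figure D2:**
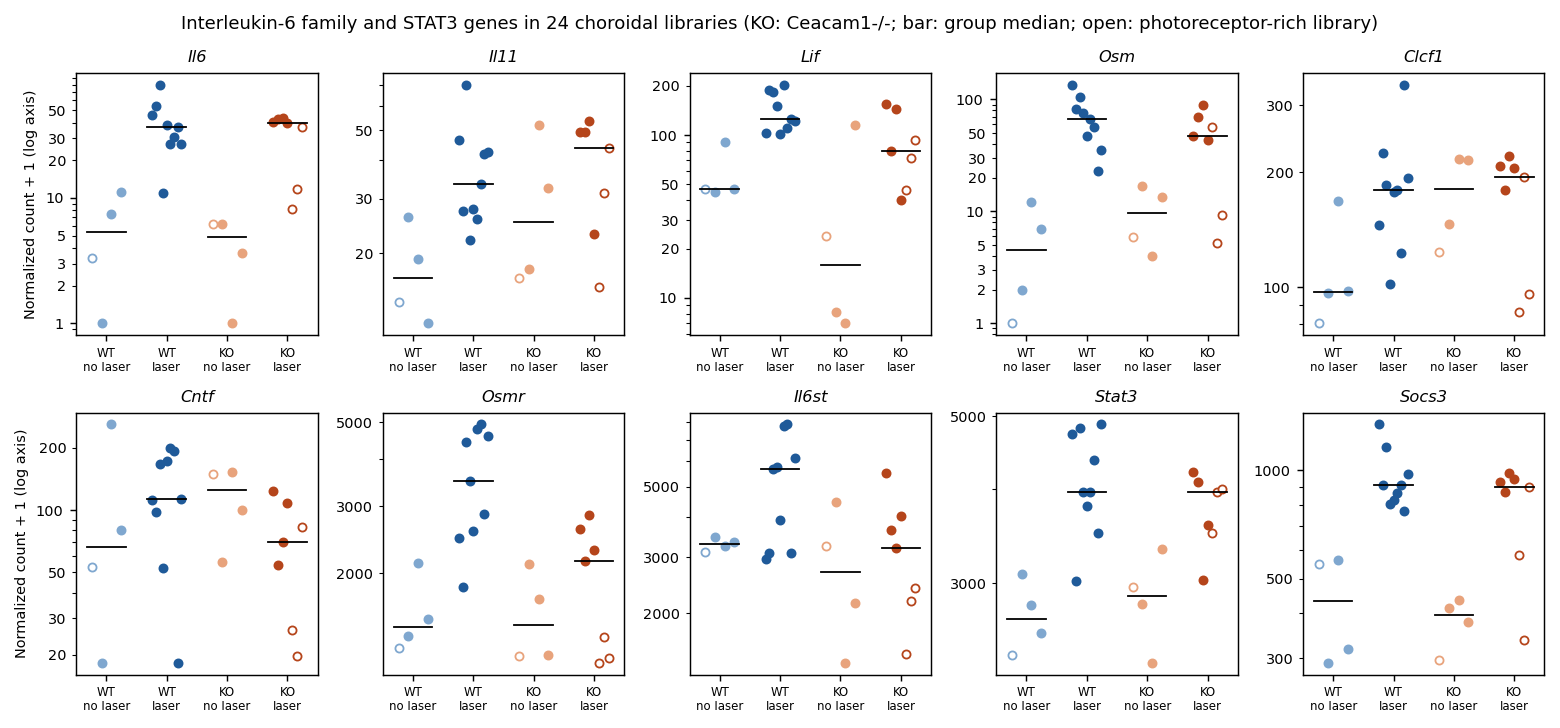
Normalized count plus 1 (log axis, with a scale of its own for each gene) of the 10 genes in each of the 24 libraries, by group, where KO stands for Ceacam1-/-, a bar for the group median and open points for the 5 photoreceptor-rich libraries. Lif, Osm and Socs3 do not overlap between the wild type groups, and the open points of the Ceacam1-/- laser group are the lowest of that group for Osmr, between 1161 and 1359.

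The same question was asked in Ceacam1-/- choroids. There, 3 of the 10 genes were higher with laser, namely Il6, Lif and Socs3, and none was lower, against 2.07% of the genes tested called higher and 3.72% called in either direction. Of the 10 fold changes 8 were above 0, with a median log2 fold change of 0.397 against 0.0186 over all genes tested. Here too, Il6 and Osm passed the filter on low values only through the laser libraries. Il6 did not overlap between the groups, as did 1.17% of all genes tested. It had 5.22, 5.24, 0 and 2.61 normalized counts in libraries 23, 24, 25 and 28 and a median of 38.8 with laser, from 7.14 to 42.6, with a log2 fold change of 2.97 (standard error 0.67, adjusted p = 0.0153). Without library 25, where Il6 was at 0, the log2 fold change was 2.38 and the adjusted p 0.122. Lif had 22.8, 7.15, 5.98 and 114 without laser and a median of 78.6 with laser, from 38.9 to 154. Library 28 lay above 5 of the 7 laser libraries, and the other 3 lay below all of them. For Lif this gave a log2 fold change of 2.02 (standard error 0.54, adjusted p = 0.0380). Leaving out library 4, 5, 6, 18, 24 or 25 took the adjusted p of Lif to 0.0573, 0.0612, 0.0645, 0.0504, 0.183 and 0.250, in this order, and over all 11 libraries left out in turn its log2 fold change ranged from 1.52 without library 25 to 2.86 without library 28 (adjusted p = 0.000697). With a pseudocount of 10 the log2 fold change of Lif was 1.48 (adjusted p = 0.0548) and that of Il6 was 1.52, still called. With no filter on low values and with quantile normalization the adjusted p was 0.0652 and 0.0562 for Lif and 0.0578 and 0.0593 for Socs3.

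Socs3 had 296, 414, 435 and 378 normalized counts without laser and a median of 895 with laser, from 337 to 981. Library 15 was the only laser library inside the range without laser. Laser raised it by 0.99 on the log2 scale (standard error 0.26, adjusted p = 0.0327), and without library 5, 6, 7, 24, 25 or 28 the adjusted p was 0.0612, 0.0562, 0.0601, 0.0776, 0.0939 and 0.0537, in this order. Stat3 had 2962, 2814, 2353 and 3330 without laser and a median of 3970 with laser, from 3029 to 4218. Only laser library 6 lay below library 28, the highest without laser, and the log2 fold change of 0.40 had an adjusted p of 0.107. Osm had 4.92, 15.8, 3.02 and 12.5 without laser and a median of 45.8 with laser, from 4.17 to 88.6 (log2 fold change 1.90, adjusted p = 0.155). Libraries 15 (4.17) and 18 (8.29) lay within the range without laser, and the other 5 lay above it. A model of the 11 Ceacam1-/- libraries alone called none of the 10 genes, and 36 of all genes higher and 2 lower. In it Il6, Lif and Socs3 had an adjusted p of 0.141, 0.285 and 0.218.

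The receptor genes were spread widely in the Ceacam1-/- laser group. Osmr had 1212, 2118, 1708 and 1217 normalized counts without laser and a median of 2152 with laser, from 1161 to 2841 (log2 fold change 0.27, adjusted p = 0.636). The 3 photoreceptor-rich libraries had 1161, 1359 and 1193, and the other 4 had 2152 to 2841. Il6st had 3246, 4460, 1398 and 2154 without laser and ranged from 1485 to 5524 with laser (log2 fold change 0.21, adjusted p = 0.766), again with the 3 photoreceptor-rich libraries lowest, at 1485 to 2393 against 3207 to 5524. Il6 was likewise lower in these 3, at 7.14 to 35.5 against 38.8 to 42.6, whereas Stat3 was at 3493 to 4000 against 3029 to 4218. Il11 (log2 fold change 0.39), Clcf1 (-0.09) and Cntf (-0.88) had adjusted p values of 0.622, 0.899 and 0.484.

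Without the 3 photoreceptor-rich Ceacam1-/- laser libraries, 4 of the 10 genes were called higher with laser. These were Il6 (log2 fold change 3.60), Lif (2.21), Osm (2.80, adjusted p = 0.0114) and Socs3 (1.30), while Osmr had 0.70 (adjusted p = 0.129), Il6st 0.65 (adjusted p = 0.264), Il11 0.65 (adjusted p = 0.407) and Cntf -0.33 (adjusted p = 0.837), and Clcf1 turned to 0.25 (adjusted p = 0.688). In this setting 1499 genes were called higher and 506 lower, compared with 413 and 329 in all libraries. The part of photoreceptor RNA in the differences between these libraries was not tested further.

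**Figure D3:**
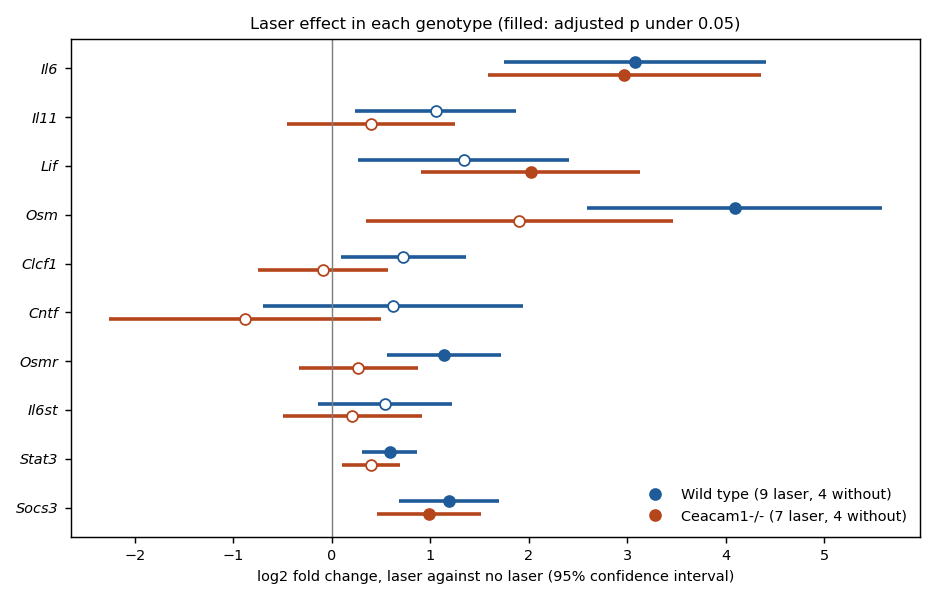
Log2 fold change of laser against no laser for the 10 genes in wild type (9 against 4 libraries, blue) and Ceacam1-/- choroids (7 against 4, red), with 95% confidence intervals. Filled points have an adjusted p under 0.05, which 5 genes reached in wild type and 3 in Ceacam1-/- choroids, Il6 and Socs3 in both.

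Markers of myeloid cells were higher with laser, in marker lists chosen with earlier results of these data known. Of 10 myeloid markers 9 were called higher with laser in wild type mice, where 4.23% of all genes tested were, and 7 in Ceacam1-/- mice, where 2.07% were, with median sums that went from 12819 without to 72275 with laser in wild type mice and from 11578 to 59090 in Ceacam1-/- mice. Lyz2 was the most abundant over the 24 libraries, and no myeloid marker was at 0 throughout a group. The 3 photoreceptor-rich Ceacam1-/- laser libraries had the lowest myeloid sums of their group, between 15850 and 27076. Of 8 neutrophil markers 5 could be tested, and 3 of them were higher with laser in wild type mice and 2 in Ceacam1-/- mice, with median sums of 146 and 504 and of 216 and 708. One of those called in both genotypes, Mmp8, reached the filter only through the laser libraries. Csf3r was the most abundant of these over the 24 libraries, the neutrophil marker Ly6g was at 0 in all 8 libraries without laser and averaged 0.256 and 0.592 normalized counts with laser in wild type and Ceacam1-/- mice, and Mpo was at 0 in all Ceacam1-/- laser libraries. The sum of 8 fibroblast and mural markers, led by Col1a1, had medians of 144141 without and 265719 with laser in wild type mice and of 118616 and 381842 in Ceacam1-/- mice, with 1 of the 8, Lum, called higher in each genotype. None of the 4 T cell markers tested was called. Of 7 Müller glia and astrocyte markers, led by Rlbp1 over the 24 libraries, only Vim, an intermediate filament gene that fibroblasts and immune cells also use, was higher with laser in wild type mice, and 0 were called in Ceacam1-/- mice. None of the 10 photoreceptor markers was called, with median log2 fold changes of -1.40 and 2.36, and none of the 7 RPE markers was, with 0.0199 and -1.66. None of the 8 endothelial markers (0.426 and -0.15) and none of the 6 melanocyte markers (0.537 and -0.511) was called either. All of both lists were above 0 in wild type mice, while 7 and 6 of them were below 0 in Ceacam1-/- mice. No marker of 3 tissues beside the choroid was called. All 8 skeletal muscle markers were below 0 in both genotypes (medians -0.706 and -2.02), as were all 6 of the surface epithelium (-1.40 and -2.54), while 7 and 6 of 8 lens markers were above 0 (1.23 and 0.982). The part of these cells in the rise of the cytokine genes was not tested.

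The interaction of laser and genotype asks whether the laser effect itself differed between the genotypes. None of the 10 genes, and none of the 19950 genes tested (0%), passed the threshold in limma, with 1241 genes (6.22%) at an unadjusted p under 0.05. The difference in laser effect, Ceacam1-/- minus wild type, was below 0 for 9 of the 10 genes, with a median of -0.497 on the log2 scale against 0.00755 over all genes tested. In the same comparison all 10 myeloid markers (median -0.658), all 8 endothelial markers (-0.698), all 7 RPE markers (-1.56), all 6 melanocyte markers (-1.01) and all 8 skeletal muscle markers (-1.17) were below 0 and all 10 photoreceptor markers above 0 (3.7), with none called, and their part in the values of the 10 genes was not tested. Osm (-2.19, 95% confidence interval -4.35 to -0.03) and Osmr (-0.87, -1.71 to -0.03) had unadjusted p values of 0.0474 and 0.0429 and an adjusted p of 0.640 each. For Socs3 the difference was -0.20 (-0.93 to 0.53) and for Stat3 -0.19 (-0.59 to 0.21), so that these libraries do not show whether the genotypes differ by less than these bounds. Lif was the exception in sign, with 0.68 (-0.87 to 2.23). Without the 3 photoreceptor-rich libraries the differences of Il6 (0.52), Il6st (0.10) and Socs3 (0.11) were above 0, and those of Osm and Osmr were -1.29 and -0.44, each with an adjusted p of 0.999. Without all 5 photoreceptor-rich libraries Osm had -0.85.

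Without laser, the genotypes were compared in 4 against 4 libraries. Il6 and Osm did not reach the filter and were compared by two-sided exact permutation tests, which gave p = 0.771 for Il6 and p = 0.286 for Osm (the smallest p that 4 against 4 allows is 0.0286). None of the other 8 genes was called, as none of all 20057 genes tested (0%) was in limma, with 307 genes (1.53%) at an unadjusted p under 0.05. The deleted gene Ceacam1, with means of 2956 in wild type and 647 in Ceacam1-/- libraries, was thus not called either. With a count model and sex as a covariate, the study did report differentially expressed genes between the genotypes in choroids without laser. The absence of calls here is therefore weak evidence of no difference. Clcf1 was at 110 ± 39.3 normalized counts in the wild type and at 175 ± 48.0 in the Ceacam1-/- libraries (SD, n = 4), with a log2 fold change of 0.68 (95% confidence interval -0.09 to 1.46). For Lif it was -1.46 (-3.42 to 0.50), with 3 of the 4 Ceacam1-/- libraries below all wild type libraries and library 28 above them. It was -2.31 without library 28 and -0.96 without library 25. Stat3 (2719 ± 295 and 2865 ± 404), Socs3 (430 ± 145 and 381 ± 61.2) and Osmr (1567 ± 384 and 1564 ± 436) had log2 fold changes of 0.07, -0.12 and -0.01, with intervals of -0.33 to 0.47, -0.77 to 0.52 and -0.59 to 0.56. All 8 had an adjusted p of 0.999.

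With laser, the genotypes were compared in 7 against 9 libraries. None of the 10 genes was called, against 0.0202% of the 19757 genes tested, which is 4 genes, while 4479 genes (22.7%) had an unadjusted p under 0.05. All 10 log2 fold changes, Ceacam1-/- against wild type, were below 0, although that of Il11 was only -0.01 and its mean normalized counts were 37.02 and 36.53, with a median log2 fold change of -0.523 against 0.0129 over all genes tested. Osmr was at 3561 ± 1169 normalized counts in the 9 wild type libraries and at 1945 ± 700 in the 7 Ceacam1-/- libraries (SD), with a log2 fold change of -0.88 (standard error 0.25, adjusted p = 0.119, exact permutation p = 0.00682). Lif followed with -0.78 (adjusted p = 0.163, exact permutation p = 0.0161) and Il6st with -0.69 (adjusted p = 0.178, exact permutation p = 0.0374). Osm had -0.94, Cntf -0.83, Socs3 -0.33, Stat3 -0.12 and Il6 -0.35, with adjusted p values of 0.308, 0.314, 0.330, 0.535 and 0.639. Marker lists of other cell types were shifted in this comparison too. All 8 skeletal muscle markers, led by Acta1, were below 0 in this comparison (median log2 fold change -1.42), with all 8 at an unadjusted p under 0.05 and none called, and their median sum was 298244 in wild type and 94087 in Ceacam1-/- laser libraries, against 399466 and 466329 without laser. All 10 myeloid markers (median -0.502), all 7 RPE markers (-1.59), all 6 melanocyte markers (-1.07), all 8 endothelial markers (-0.536) and all 8 fibroblast and mural markers (-0.475) were below 0 as well, and all 10 photoreceptor markers were above 0 (2.09), with none called. The summed fibroblast and mural markers were at 45149 to 107123 in the 3 photoreceptor-rich libraries and at 381842 to 634594 in the other 4, against 207678 to 400500 in wild type, so their direction differed between these libraries. The part of these cell types in the values of the 10 genes was not tested. The values rest in part on the 3 photoreceptor-rich libraries. Without them the log2 fold change of Osmr was -0.46 (adjusted p = 0.670), of Il6st -0.26 (adjusted p = 0.878) and of Osm -0.04 (adjusted p = 0.988), Cntf had -0.29 and Socs3 -0.01, and Il6 (0.27), Il11 (0.24) and Clcf1 (0.21) were above 0. Lif had -0.59 (adjusted p = 0.682) and Stat3 -0.14 (adjusted p = 0.865). This comparison shares its laser libraries with the laser comparisons above.

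The rest of the pathway was described with 60 other genes, of which 56 could be tested in the laser comparisons. These lists were chosen with earlier results of these data known, so their counts are a description and not a test of the pathway. In wild type choroids 13 of these were higher with laser and none lower (4.23% and 1.05% of all genes tested), with a median log2 fold change of 0.339, and in Ceacam1-/- choroids 6 were higher and 1 lower (2.07% and 1.65%), with a median of 0.289. Without library 21 the 13 became 6, while all genes called higher went from 844 to 411. In Ceacam1-/- choroids the 6 became 12 without library 28 and 19 without the 3 photoreceptor-rich laser libraries. In the latter setting all genes called higher went from 413 to 1499. Most of the higher genes belonged to the 24 genes listed as STAT3 targets, of which 9 were higher in wild type, with 4 higher and 1 lower in Ceacam1-/- choroids. The 4 genes of that list with the largest wild type differences were Saa3, Serpina3n, Timp1 and Lcn2. Serpina3n, which encodes a secreted protease inhibitor, had 393 ± 178 normalized counts without laser (n = 4) and 10240 ± 2722 with laser (n = 9) in wild type, and 618 ± 448 and 6782 ± 3456 in Ceacam1-/- choroids (n = 4 and 7). Its log2 fold changes were 4.80 (adjusted p = 1.5e-07) and 3.52 (adjusted p = 3.5e-05). Timp1, an inhibitor of matrix metalloproteinases, went from 173 ± 76.2 to 4682 ± 2247 in wild type mice and from 192 ± 66.9 to 3787 ± 1780 in Ceacam1-/- mice, with log2 fold changes of 4.69 and 4.23. Saa3, an acute-phase apolipoprotein, had 5.53 and 5.33, and Lcn2, which encodes lipocalin-2, had 3.29 and 3.58. Saa3 reached the filter only through the laser libraries. In each genotype the groups did not overlap for these 4 genes. Of the 24 listed targets, 9 in wild type and 4 in Ceacam1-/- choroids were higher without overlap. Of all genes tested, 4.5% and 1.17% were.

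Ebi3, which encodes a subunit of interleukin-27 and interleukin-35, rose in wild type (log2 fold change 1.40, adjusted p = 0.00807) and had 0.72 (adjusted p = 0.210) in Ceacam1-/- choroids. Il4ra and Il1r1, listed among the targets and encoding cytokine receptor chains, rose in wild type by 1.51 and 1.20 on the log2 scale and had 0.66 and 0.41 in Ceacam1-/- choroids (adjusted p = 0.222 and 0.391). None of the 5 other receptor genes tested was called in either genotype. Il11ra1, the receptor of interleukin-11, was the most abundant of them per length, with 2113 normalized counts per kb without and 2123 with laser in wild type, and Lifr, the LIF receptor, had 276 and 260. Il6ra, which binds interleukin-6, had 14.8 and 26.8 per kb (log2 fold change 0.82, adjusted p = 0.160), and Cntfr, which binds CNTF, had 222 and 131 (log2 fold change -0.78, adjusted p = 0.116). Il27ra had 13.1 and 30.1 per kb (log2 fold change 1.18, adjusted p = 0.344), and Il31ra stayed under the filter.

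None of the kinases was called with laser, and of the other STAT genes only Stat4 was. Jak1 had 3297 ± 596 normalized counts without and 3760 ± 666 with laser in wild type, with log2 fold changes of 0.19 there and 0.31 in Ceacam1-/- choroids. Jak2 had 0.15 and 0.23 and Tyk2 -0.03 and 0.17. Of the 6 other STAT genes none was called in wild type, and Stat4, which transmits interleukin-12 signals in lymphocytes, was higher in Ceacam1-/- choroids, at 12.8 ± 10.5 without and 45.7 ± 15.96 with laser (log2 fold change 2.40, adjusted p = 0.0327), against 1.51 (adjusted p = 0.150) in wild type. Of the 15 inhibitor genes beside Socs3, Ptpn2, a phosphatase that acts on Janus kinases and STATs, was higher with laser in both genotypes (0.47, adjusted p = 0.0429, and 0.79, adjusted p = 0.00254). Ptpn1, a related phosphatase named here after its value was seen, was the other one called in wild type (0.63, adjusted p = 0.0423). Pim3, which encodes a kinase and is listed as a target, was the one gene called lower, in Ceacam1-/- choroids, at 1417 ± 234 without and 915 ± 184 with laser (-0.64, adjusted p = 0.0307). No pathway gene was called lower there without a filter on low values, with a photoreceptor covariate, with only the compared libraries in the fit, or without library 24 or 25. In the interaction and in both genotype comparisons none of the other pathway genes was called, and the lowest p values with laser were those of Stat2 (0.74, adjusted p = 0.0822) and Pias3 (0.66, adjusted p = 0.0833).

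**Figure D4:**
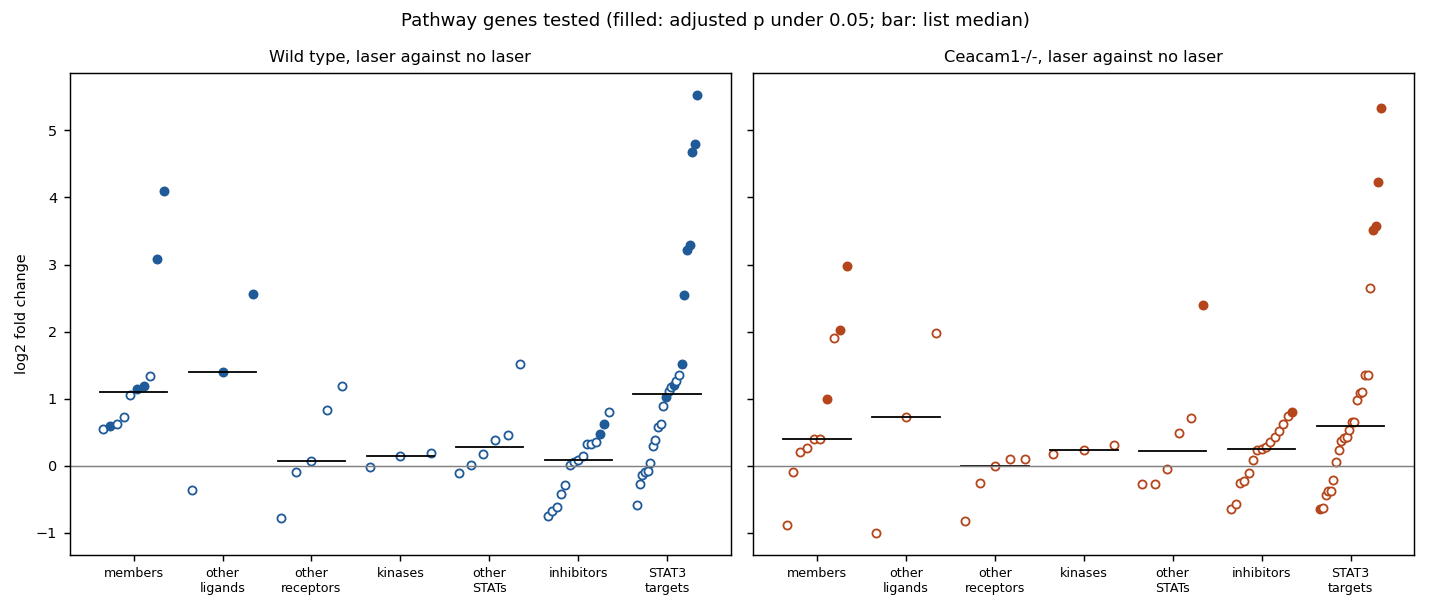
Log2 fold change of laser against no laser for the 10 genes (members) and the tested genes of 6 pathway lists, in wild type (left) and Ceacam1-/- choroids (right), with a bar for the median of each list. Filled points have an adjusted p under 0.05. The 4 highest targets in wild type are Saa3 (5.53), Serpina3n (4.80), Timp1 (4.69) and Lcn2 (3.29).

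The genes also varied from library to library within a group. After the group means were removed from the log2 values, Pearson's r over the 24 libraries was highest for Osmr with Il6st (0.741) and for Cntf with Socs3 (0.585) among the 45 pairs of the 10 genes, and lowest for Clcf1 with Stat3 (-0.189). Socs3 and Stat3 had an r of 0.0124. The 5 genes of the 19949 compared that were most alike in this measure were Slc22a2 (0.84), Ccdc40 (0.811), Lrpap1 (0.789), Creb3l4 (0.786) and Maged1 (0.756) for Socs3. For Stat3 they were Gm45597 (0.831), Nos1ap (0.790), Vnn1 (0.757), Tbl1x (0.742) and Arhgef28 (0.733). All points share their library, with its depth and its mix of tissues, and 4 to 9 libraries stand behind each group mean.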

How the data were processed

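Choroidal SMART-Seq libraries were sequenced from 24 samples. The authors quantified reads with salmon (Salmon 1.10.3) on GRCm39 after FastQC 0.11.5, imported them with tximport and normalized them with DESeq2 1.44.0. The deposited signal values are normalized counts, not whole reads (0.26% of those above 0 were whole within 0.001), so no count model was used, and over which libraries the factors were computed was not given in the sources used here. The true read depth is therefore unknown, and no counting intervals are given.

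Groups and library numbers came from the sample titles. Positions, exon numbers and canonical transcript lengths came from the GENCODE annotation of GRCm39, which held 99.1% of the gene identifiers. The limma package (3.58.1, R 4.3.3) was applied with a variance trend on log2 of the normalized count plus a pseudocount of 1, to genes whose mean over the fitted libraries was 10 or more. Fold changes are on this scale, which understates those of low genes. Benjamini-Hochberg adjustment ran over all genes tested, with a threshold of 0.05. Laser in each genotype and the interaction came from a model of 24 libraries, and genotype from models of 8 libraries without and 16 with laser. Exact permutation tests were two-sided, on mean log2 values, and are unadjusted. The method was tested on simulated data.

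The 10 genes, the pathway lists and the marker lists were chosen with earlier results of these data known. The motifs were chosen likewise, and the NF-kappaB motif was shortened from 10 letters to 9 after counts with the longer form had been seen. By rule, the text names the 10 genes, the receptors and kinases, in each laser comparison the 8 other pathway genes of lowest p past the threshold in each direction (3 where none passed), and the 5 genes most alike to Socs3 and Stat3. Some genes that the rule names are not reported here. Further genes (Ptpn1, and values in the genotype where a named gene was not called) were added after their values were seen. Sex was a covariate in the study but is not in the labels. The summed level of Y-linked genes (Uty, Kdm5d, Eif2s3y, Ddx3y) served as a covariate in one alternative. The others were a pseudocount of 0.5 or 10, a filter at a mean of 50 or none, quantile and upper-quartile normalization, no trend, robust variances, array weights, a photoreceptor covariate, other libraries in the fit, each library left out in turn and, added after seeing the data, leaving out libraries with a photoreceptor sum over 500000. Tables and figures were made in Python 3.11.15 (pandas 2.3.3, numpy 2.4.6, matplotlib 3.10.9).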

Additional observations from a re-analysis of the deposited data

Results flagged for a closer look

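In the 40 sets formed by the 10 genes and 4 groups, the highest or lowest library stood far from the nearest other in 2, both for Lif without laser. Chance sets apart about 1 in 20 such sets. Lif had 90.0 normalized counts in wild type library 26, while the other 3 libraries lay between 44.0 and 45.9. In Ceacam1-/- library 28 it had 114, with 22.8 in the nearest library and 5.98 in the lowest. Library 28 was also one of the libraries rich in surface epithelium markers (412290 summed normalized counts), and library 26 was not (3522). The part of surface epithelium in the level of Lif was not tested.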

How the results depend on the processing

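No paired analysis was possible because the library numbers in the titles are unique and no 2 groups share one. No scaling moved the median of all genes by over 0.1 on the log2 scale.

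With laser in wild type, 3 of the 10 genes were called at a mean of at least 50, where Il6, Osm and Il11 left the test, and 9 with array weights, which also called 27 other pathway genes higher and 6 lower and 3238 and 3267 of all genes. Of all genes, 125 were called lower with the Y-linked covariate, 451 with the photoreceptor covariate, 686 lower and 1588 higher with only the compared libraries in the fit (other pathway genes lower: 2), and 516 lower without the 5 photoreceptor-rich libraries (other pathway genes lower: 1). With each library left out, 3 to 5 of the 10 genes, 6 to 13 other pathway genes and 411 to 902 of all genes were called higher and 44 to 260 lower, fewest higher without library 21 and fewest lower without library 27, and Cntf ranged from -0.0028 to 1.27.

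With laser in Ceacam1-/- choroids, 1 of the 10 genes was called without a filter (265 of all genes higher, 172 lower, 0 other pathway genes lower), 1 with quantile normalization, 5 with array weights (1895 and 1656 of all genes, 17 and 2 other pathway genes) and 0 with only the compared libraries in the fit (36 and 2, with 3 and 0 other pathway genes). The photoreceptor covariate gave 687 and 193 of all genes and 10 and 0 other pathway genes. Without the 3 photoreceptor-rich laser libraries 1499 and 506 of all genes and 19 other pathway genes higher were called, and without all 5 it was 1697, 1226 and 15. Clcf1 turned to 0.26 with array weights, 0.24 with the photoreceptor covariate, 0.25 without the 3 and 0.094 without the 5 libraries, and Cntf to 0.0052 with array weights. Leaving out each library gave 0 to 3 of the 10 genes, 5 to 12 other pathway genes higher and 0 to 1 lower, and 133 to 1135 of all genes higher and 15 to 1353 lower, the fewest without library 25 and the most without library 23. Clcf1 then ranged from -0.24 to 0.061 and Il6st from -0.083 to 0.47.

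No call was made among the 10 genes in the interaction or in either genotype comparison under any alternative run. In the interaction, Il6 turned to 0.78 with array weights, 0.13 with the photoreceptor covariate (Socs3: 0.049), 0.52 without the 3 libraries (Il6st 0.10, Socs3 0.11) and 0.91 without the 5 (Il6st 0.24), and ranged from -0.70 to 0.57 with each library left out. Between genotypes without laser, 1 gene of all was called higher with upper-quartile scaling, without the variance trend and with array weights, and 0 to 1 lower with each library left out. Osmr turned to 0.25 with array weights and 0.0014 without the photoreceptor-rich libraries, Socs3 to 0.20 and 0.13, and Stat3 to -0.0061 in the latter. With each library left out they ranged from -0.17 to 0.14, from -0.29 to 0.027 and from -0.0056 to 0.16. Between genotypes with laser, genes called higher numbered 4 without a filter, 0 at a mean of at least 50, 88 with array weights (209 lower, and 2 other pathway genes higher), 1 with either covariate, 7 with all 24 libraries in the fit and 0 without the photoreceptor-rich libraries, and 2 to 12 higher and 2 to 49 lower with each library left out. Il11 turned to 0.00058 with a pseudocount of 10, 0.063 with array weights, 0.21 with the Y-linked and 0.25 with the photoreceptor covariate and 0.24 without the photoreceptor-rich libraries. Il6 turned to 0.21, 0.14 and 0.27 and Clcf1 to 0.29, 0.16 and 0.21 with array weights, the photoreceptor covariate and without these libraries. With each library left out, Il11 ranged from -0.11 to 0.18 and Clcf1 from -0.23 to 0.018. The causes of these shifts were not tested.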
